A study of Mus musculus with 8 samples.

Results

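The genes described here are 34 genes of glycolysis, glucose and lactate transport, the entry of pyruvate into the mitochondria, glycogen synthesis and the pentose phosphate pathway. A member was measured where a probe set on the array carried its symbol, and no other, in the platform annotation. By that rule 31 of the 34 members were found among 18194 named genes, with 71 of 34958 probe sets that carried 1 symbol. Gpi1, Eno1 and G6pdx had no such probe set and were not analysed here. Gapdh was represented only by the 3 control probe sets of the array maker, so it is described but was not among the 30 members tested with 14266 genes in all.

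Mouse embryonic stem cells of the 129X1 x 129S1 strain background, kept under standard stem cell conditions, were profiled on 8 Affymetrix arrays. In every sample 1 part of cells carrying a short hairpin against Top1 (shTop1) or against p53 (shp53) was combined with 4 parts of mock cells. In the 4 cocultures (2 shTop1, 2 shp53) both kinds of cell grew together for 4 days before RNA was collected. There 1:4 is the ratio at which the cells were combined, and the ratio after 4 days was not measured. In the 4 mixes (2 shTop1, 2 shp53), labelled as controls, each kind of cell was grown by itself for 4 days and the RNAs were pooled at 1:4. The comparison of coculture with mix was set up to isolate what growing together adds to the knockdowns themselves. A value does not tell whether it came from mock or knockdown cells. The labels call the arrays of a group biological replicates and do not say which cultures or clones they came from, so p-values measure only the spread between these samples. In bulk RNA, a change in RNA per cell and a change in the number of cells of a type cannot be told apart.

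Glycolysis splits glucose into pyruvate in the cytosol, and cells that divide fast often send much of that pyruvate to lactate. Hexokinases trap glucose as glucose 6-phosphate, phosphofructokinases commit it to breakdown, and pyruvate kinase makes the final ATP. Glucose 6-phosphate can instead leave for glycogen through phosphoglucomutase, or for ribose and NADPH through the pentose phosphate pathway. Pluripotent stem cells are known for a high rate of glycolysis, and many glycolytic genes carry binding sites for HIF and MYC family factors.

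In the cocultures 29 of the 30 tested members had a higher mean level than in the mixes, where 55.3% of all genes did. The median log2 difference was 0.15 over the members and 0.02 over all tested genes. With a gene's probe sets averaged, 23 of the 30 members were higher and their median was 0.12. The differences were small. The largest were seen for the regulator Pfkfb3 (log2 0.52), the phosphoglucomutase Pgm1 (0.48) and the aldolase Aldoc (0.47). No member passed the Benjamini-Hochberg adjusted threshold of 0.05 in limma's test, and neither did any other gene (0% of all genes called). Without adjustment, 9 of 30 members had a p under 0.05 and were higher, where 7.09% of all genes did, and 0 members were lower, where 4.63% of all genes were. The 9 were Pfkl, Pfkm, Pfkfb3, Aldoc, Eno2, Ldhb, Pdk3, Pgm1 and Pgm2. The count moved in both directions when 1 array was left out, and so did the share of all genes. The members' median was 0.14 without the second shTop1 mix and 0.12 without the second shTop1 coculture. It was 0.17 without the first shTop1 coculture, the array farthest from the rest on the second principal component.

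The letters ACGTG are a core sequence known from HIF sites, and the core GCGTG was not searched. CACGTG is the E-box read by MYC family factors and contains ACGTG on both strands. The 250 bases before the 5'-most listed transcription start of each gene were searched on both strands, in the RefSeq promoters of build GRCm38.p6. Further starts are listed for some members, among them Pfkm, Pfkfb3, Aldoc and Ldha, and were not used. ACGTG was present for 12 of 29 tested members with a promoter in the table (41.4%), 21.3% of 11467 tested genes and 16.5% of all 27025 genes. CACGTG was present for 3 of the 29 (Pfkm, Ldha and Slc16a1), 8.37% of the tested genes and 6.04% of all genes. Of the 11 members whose 4 cocultures all lay above the 4 mixes, 6 held ACGTG, and of the 18 others also 6. The promoters below are those of Pgm1, Pfkfb3 and Pgm2, which hold ACGTG and were higher in all cocultures, of Aldoc, which was as much higher and holds neither motif, and of Ldha, which holds the most copies and differed little. Capitals mark the letters of ACGTG or CACGTG on either strand, and each sequence runs 5' to 3' towards the start.
Pgm1 (chr4:99929201-99929450, plus strand): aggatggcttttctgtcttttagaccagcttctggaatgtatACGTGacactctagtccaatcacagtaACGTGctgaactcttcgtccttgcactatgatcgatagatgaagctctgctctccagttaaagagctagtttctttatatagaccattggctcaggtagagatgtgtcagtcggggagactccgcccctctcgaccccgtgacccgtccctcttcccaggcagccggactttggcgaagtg
Pfkfb3 (chr2:11553930-11554179, minus strand): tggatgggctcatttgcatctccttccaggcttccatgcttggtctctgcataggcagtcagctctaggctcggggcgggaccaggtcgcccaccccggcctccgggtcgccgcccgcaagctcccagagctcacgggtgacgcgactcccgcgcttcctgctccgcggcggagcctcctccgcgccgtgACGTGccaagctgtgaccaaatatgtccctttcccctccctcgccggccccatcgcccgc
Pgm2 (chr5:64092689-64092938, plus strand): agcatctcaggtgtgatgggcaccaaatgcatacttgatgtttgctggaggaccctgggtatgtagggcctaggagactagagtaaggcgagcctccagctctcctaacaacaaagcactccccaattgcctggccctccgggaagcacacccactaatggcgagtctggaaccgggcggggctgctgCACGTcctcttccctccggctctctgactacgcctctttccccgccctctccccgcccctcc
Aldoc (chr11:78322823-78323072, plus strand): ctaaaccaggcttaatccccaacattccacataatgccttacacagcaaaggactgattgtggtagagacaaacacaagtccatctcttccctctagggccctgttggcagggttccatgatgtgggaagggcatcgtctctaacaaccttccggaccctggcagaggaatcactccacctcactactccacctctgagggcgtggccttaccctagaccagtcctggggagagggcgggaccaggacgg
Ldha (chr7:46845554-46845803, plus strand): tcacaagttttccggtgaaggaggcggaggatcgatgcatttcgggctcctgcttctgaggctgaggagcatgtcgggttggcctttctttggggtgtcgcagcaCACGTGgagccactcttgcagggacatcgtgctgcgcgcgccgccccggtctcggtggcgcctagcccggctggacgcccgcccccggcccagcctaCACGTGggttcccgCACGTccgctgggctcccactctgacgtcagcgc
In Pgm1 the matches began at -208 and -181 from the start, in Pfkfb3 at -60 and in Pgm2 at -62. Ldha held 5 ACGTG matches, at -145, -144, -48, -47 and -34, which include 2 copies of CACGTG. A match of letters is a description of the sequence, and binding was not measured.

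**Figure D1:**
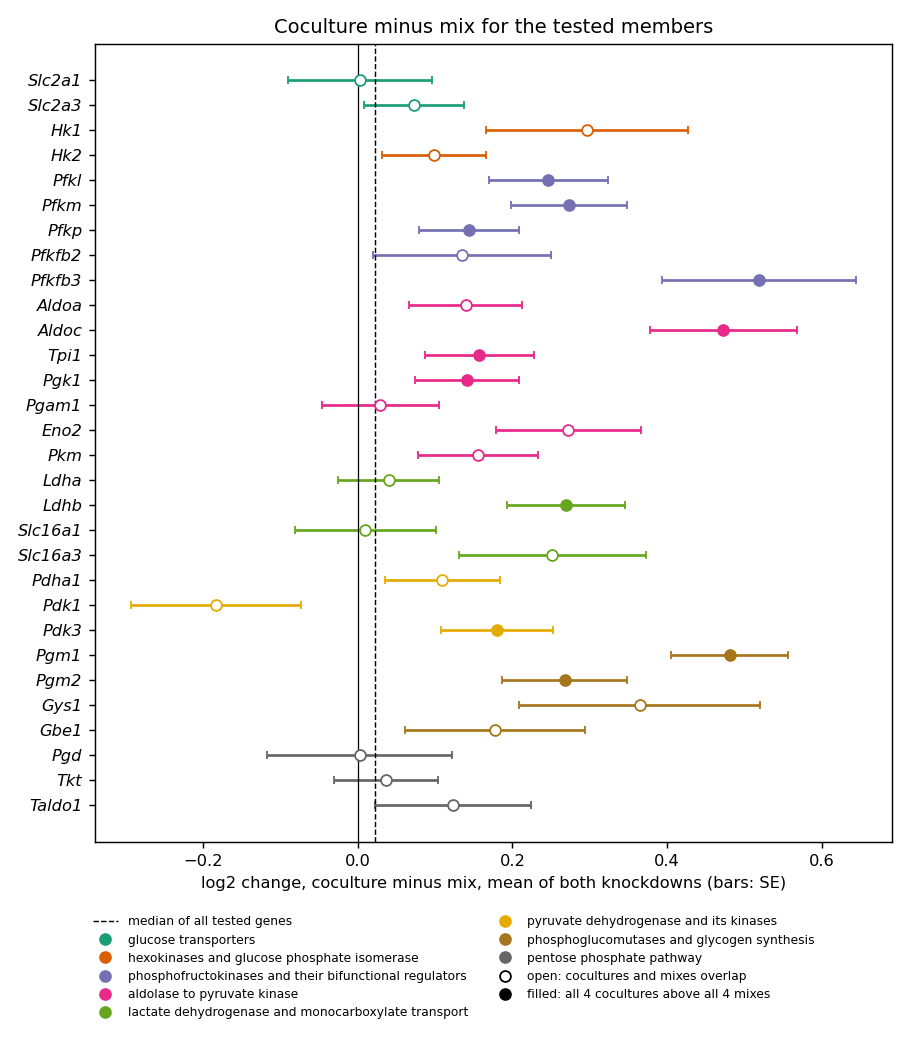
Log2 change of each tested member, coculture minus mix averaged over both knockdowns, with its standard error (horizontal axis), in pathway order (vertical axis) and coloured by role. Filled points are the 11 members whose 4 cocultures all lay above the 4 mixes, and the dashed line is the median of all tested genes at 0.02. All points but Pdk1 lie above 0, and Pfkfb3, Pgm1 and Aldoc lie farthest to the right.

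Values below are quantile-normalized array signals, the scale on which the test was run after adding 16 and taking log2, and they are given as replicate 1 and replicate 2 of each group. A probe set's signal depends on its own sequence, so levels are compared between samples and not between genes.

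The 2 glucose transporters had a median log2 difference of 0.04. The probe set with the highest signal of Slc2a1 (GLUT1), the widespread basal transporter, ranged from 19012 to 22794 in the mixes and from 20293 to 23225 in the cocultures, a log2 difference of 0.00 (SE 0.093). Its 2 other probe sets differed by 0.16 and 0.19, so the probe sets of this gene disagreed in size. Slc2a3 (GLUT3), a transporter of high affinity, ranged from 28803 to 31362 in the mixes and from 31362 to 31977 in the cocultures, a difference of 0.07. Its 3 other probe sets differed by 0.12, 0.40 and 0.40, and in 1 of the latter pair all cocultures lay above all mixes.

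Of the hexokinases, Hk1 had signals of 942 and 883 in the shTop1 mixes, 1041 and 1284 in the shTop1 cocultures, 801 and 838 in the shp53 mixes, and 1159 and 831 in the shp53 cocultures. The second shp53 coculture lay at the level of the mixes and the other 3 cocultures lay above them. The log2 difference was 0.30 (SE 0.131, limma adjusted p = 0.448), and 0.18 without the first shp53 coculture. Hk2, the inducible isozyme that binds mitochondria, ranged from 9206 to 10063 in the mixes and from 10025 to 10402 in the cocultures, a difference of 0.10. Gpi1, which makes the next step, was not analysed here.

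The phosphofructokinase step held 5 members, and all 5 were above 0 (median log2 difference 0.25). Pfkl, the liver type subunit, measured 4970 and 4867 in the shTop1 mixes, 5577 and 6427 in the shTop1 cocultures, 5192 and 5493 in the shp53 mixes, and 6306 and 6056 in the shp53 cocultures. The 4 cocultures lay above the 4 mixes, by 0.25 (SE 0.0774, limma adjusted p = 0.363). A further Pfkl probe set differed by -0.35, with all cocultures below all mixes, and averaging the gene's probe sets left 0.06. Pfkm, the muscle type subunit, measured 745 and 742 in the shTop1 mixes, 899 and 1033 in the shTop1 cocultures, 824 and 802 in the shp53 mixes, and 939 and 907 in the shp53 cocultures. Its groups did not overlap either, and the difference was 0.27 (SE 0.0747, limma adjusted p = 0.349). It was 0.37 in shTop1 and 0.18 in shp53, and the difference of those values was 0.19 (SE 0.149, limma adjusted p = 1). Pfkp, the platelet type subunit, ranged from 7576 to 7764 in the mixes and from 8187 to 8713 in the cocultures, without overlap, a difference of 0.14 (SE 0.0648, limma adjusted p = 0.455). It was 0.05 with its 3 probe sets averaged, 1 of which differed by -0.14.

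Pfkfb3 and Pfkfb2 encode bifunctional enzymes that set fructose 2,6-bisphosphate, the main activator of phosphofructokinase. Pfkfb3 measured 303 and 295 in the shTop1 mixes, 454 and 404 in the shTop1 cocultures, 279 and 289 in the shp53 mixes, and 505 and 350 in the shp53 cocultures. All cocultures lay above all mixes, and the spread between the 2 shp53 cocultures was the widest of the 4 groups. The difference was 0.52 (SE 0.126, limma adjusted p = 0.344), a ratio of 1.43. A second Pfkfb3 probe set, below the filter on low signal, differed by -0.61, so the direction for this gene rests on 1 probe set. Pfkfb2 measured 241 and 178 in the shTop1 mixes, 215 and 186 in the shTop1 cocultures, 197 and 190 in the shp53 mixes, and 260 and 232 in the shp53 cocultures. The shTop1 arrays overlapped (log2 -0.05), while both shp53 cocultures lay above both shp53 mixes (0.32), and the difference between the knockdowns was -0.36 (SE 0.231, limma adjusted p = 1). Its mean difference of 0.13 was 0.03 without the second shTop1 mix, 0.24 without the first and 0.09 without the first shTop1 coculture.

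**Figure D2:**
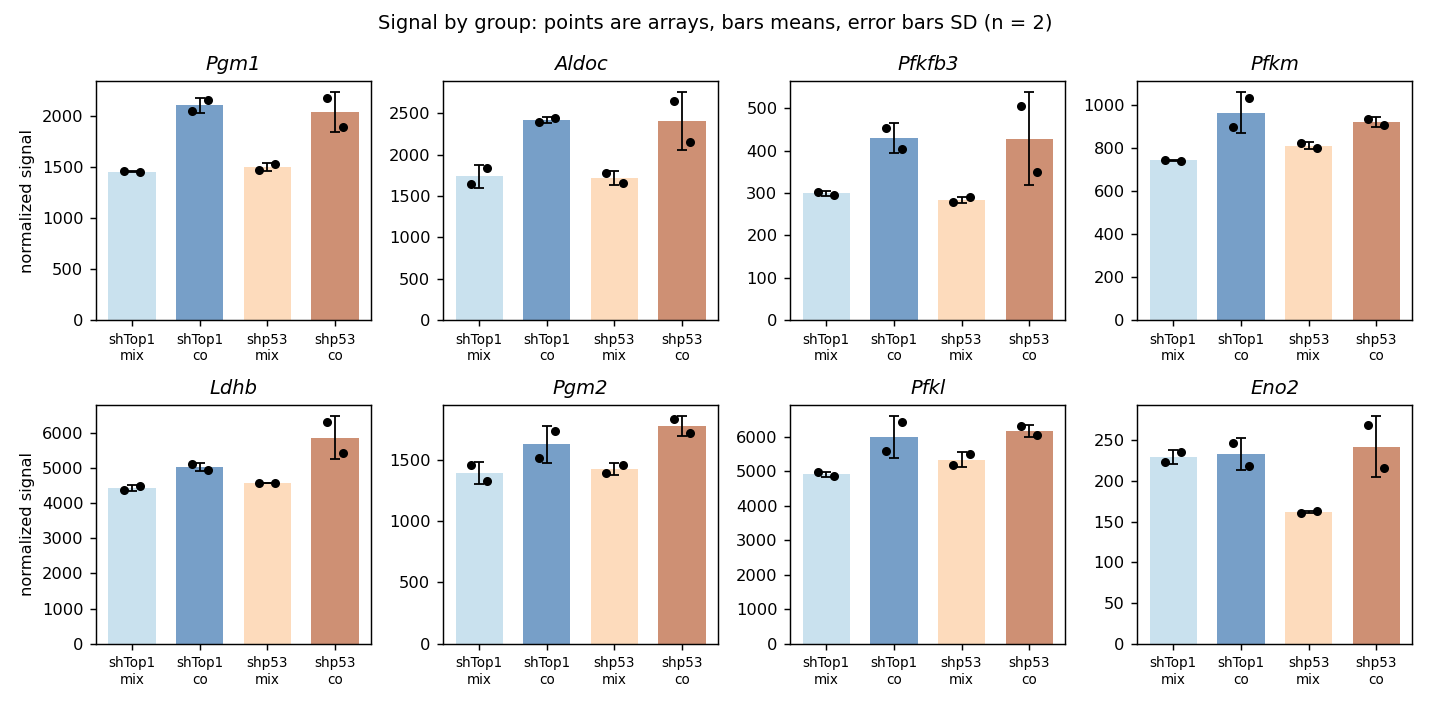
Normalized signal (vertical axes, from 0) of the 8 members with the smallest p in the coculture comparison, by group (co, coculture). Points are arrays, bars are means and error bars are SD of 2 arrays. In Pgm1, Aldoc, Pfkfb3, Pfkm, Ldhb, Pgm2 and Pfkl both cocultures stand above the mixes in both knockdowns, and in Eno2 only the shp53 mixes, at 161 and 163, stand apart.

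From aldolase to pyruvate kinase all 7 tested members were above 0, with a median of 0.16. Aldoc, the brain type aldolase, measured 1642 and 1836 in the shTop1 mixes, 2393 and 2444 in the shTop1 cocultures, 1783 and 1659 in the shp53 mixes, and 2651 and 2155 in the shp53 cocultures. The groups did not overlap, and the difference was 0.47 in both knockdowns and in their mean (SE of the mean 0.0947, limma adjusted p = 0.333). A second Aldoc probe set, with a mean signal of 30.8, differed by -0.51, so the mean of both probe sets lay near 0. Aldoa, the main aldolase of most tissues, ranged from 23579 to 26548 in the mixes and from 26230 to 29482 in the cocultures, a difference of 0.14, and its 5 probe sets were all above 0.

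Tpi1, which interconverts the triose phosphates, ranged from 18143 to 18840 in the mixes and from 19679 to 21584 in the cocultures. Pgk1, the first ATP-making enzyme of the pathway, ranged from 25968 to 26548 in the mixes and from 27373 to 29736 in the cocultures. Both were higher in all 4 cocultures on these normalized signals, though Pgk1 overlapped on the signals as deposited. Tpi1 and Pgk1 differed by 0.16 (SE 0.0704) and 0.14 (SE 0.0672), and their limma adjusted p-values were 0.454 and 0.468. Each had 3 probe sets, all of them above 0. Pkm, the pyruvate kinase gene of dividing cells, overlapped between 15985 to 17711 in the mixes and 17368 to 19830 in the cocultures, a difference of 0.16, and Pgam1, the mutase before enolase, differed by 0.03 (SE 0.0758).

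Gapdh, the enzyme between aldolase and Pgk1 and a common reference transcript, was measured by control probe sets for its 5', middle and 3' parts. The middle one ranged from 31609 to 32235 in the mixes and from 32571 to 33584 in the cocultures, without overlap, a difference of 0.05. The other 2 overlapped and differed by 0.04 and 0.06. With control probe sets admitted to the test, Gapdh had a difference of 0.04 (SE 0.0662, limma adjusted p = 0.825).

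Eno2, the neuronal type enolase, was the member whose knockdowns differed most. It measured 224 and 236 in the shTop1 mixes, 247 and 219 in the shTop1 cocultures, 161 and 163 in the shp53 mixes, and 269 and 215 in the shp53 cocultures. The shp53 mixes were the low arrays, and the other 3 groups overlapped. Coculture minus mix was 0.02 in shTop1 and 0.53 in shp53 (SE 0.133 each), and the difference between them was -0.51 (SE 0.187, limma adjusted p = 1). At an unadjusted p under 0.05 it was the only member in that comparison (1 of 30 lower, where 1.67% of all genes were lower, and 0 higher, where 2.63% were). When arrays were left out in turn, it no longer had a p under 0.05 without the first shTop1 mix, either shp53 mix, the second shTop1 coculture or the first shp53 coculture.

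Lactate dehydrogenase converts pyruvate and lactate. The Ldhb subunit gene measured 4372 and 4490 in the shTop1 mixes, 5119 and 4950 in the shTop1 cocultures, 4570 and 4581 in the shp53 mixes, and 6300 and 5438 in the shp53 cocultures. All cocultures lay above all mixes, the difference was 0.27 (SE 0.0763, limma adjusted p = 0.355), and its 4 probe sets lay between 0.27 and 0.43. Leaving out an array also repeated the choice of probe set, and in some runs another of the 4 came to represent Ldhb. With that probe set the difference was 0.52 without the first shTop1 coculture, 0.48 without the second shTop1 mix and 0.41 without the first shp53 coculture. These values thus do not show the effect of the array alone. Ldha, the subunit that favours lactate production, ranged from 27521 to 28371 in the mixes and from 27887 to 29850 in the cocultures, a difference of 0.04 (SE 0.0656), which was 0.20 with median centring in place of quantile normalization and, by array left out, 0.06 without the first shTop1 coculture and 0.02 without the second. Of the lactate carriers, Slc16a3 (MCT4), known for lactate export, ranged from 319 to 355 in the mixes and from 353 to 523 in the cocultures, a difference of 0.25 (SE 0.121), which was 0.13 without the first shp53 coculture. Slc16a1 (MCT1) overlapped and differed by 0.01 (SE 0.0911).

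Pyruvate dehydrogenase kinases switch off the complex that brings pyruvate into the citric acid cycle, and the 2 members of that family were on opposite sides of 0. Pdk3 ranged from 1167 to 1243 in the mixes and from 1281 to 1413 in the cocultures, without overlap, a difference of 0.18 (SE 0.0723, limma adjusted p = 0.416). Pdk1, a known HIF target, was the 1 member below 0. It measured 5569 and 6119 in the shTop1 mixes, 5886 and 4490 in the shTop1 cocultures, 6074 and 5408 in the shp53 mixes, and 5077 and 5011 in the shp53 cocultures. Only the shp53 groups separated, the mean difference was -0.18 (SE 0.109, limma adjusted p = 0.546), and all 4 of its probe sets were below 0. Without the first shTop1 coculture it was -0.28 and without the second -0.09. Pdha1, a catalytic subunit of the complex, differed by 0.11, or by 0.07 without the second shTop1 coculture.

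The branch to glycogen had the highest median of the 8 role groups, 0.32 over 4 members. Pgm1, the phosphoglucomutase that links glucose 6-phosphate to glycogen and was formerly called Pgm2 in the mouse, measured 1455 and 1445 in the shTop1 mixes, 2046 and 2152 in the shTop1 cocultures, 1466 and 1527 in the shp53 mixes, and 2169 and 1892 in the shp53 cocultures. The lowest coculture lay above the highest mix, and the gap was wider than the spread within any group. The difference was 0.48 (SE 0.0759, limma adjusted p = 0.333), with 0.53 in shTop1 and 0.43 in shp53. It had the smallest p of the members in both knockdowns and in their mean, although a dim second probe set, with a mean signal of 72.2, differed by -0.30. With both probe sets averaged the difference was 0.09 (0.07 in shTop1, 0.12 in shp53).

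Pgm2, a related mutase that also acts on pentose phosphates, measured 1459 and 1327 in the shTop1 mixes, 1518 and 1735 in the shTop1 cocultures, 1393 and 1458 in the shp53 mixes, and 1834 and 1722 in the shp53 cocultures. Its cocultures lay above its mixes by 0.27 (SE 0.0811, limma adjusted p = 0.357). Gys1, the glycogen synthase of muscle and most other tissues, ranged from 367 to 518 in the mixes and from 488 to 665 in the cocultures, a difference of 0.36 (SE 0.156). The groups overlapped because the spread between replicates was wide. Gbe1, the branching enzyme, differed by 0.18 (SE 0.117), or by 0.10 without the first shp53 coculture or without the second shTop1 mix.

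The pentose phosphate members were near 0, with a median of 0.04 over 3 genes. Pgd, the second NADPH-making dehydrogenase, ranged from 4550 to 5793 in the mixes and from 4490 to 5789 in the cocultures, a difference of 0.00 (SE 0.119), and 3 of its 4 probe sets were below 0. Tkt and Taldo1, which move carbon between sugar phosphates, differed by 0.04 (SE 0.0671) and 0.12 (SE 0.101). Tkt was at 0.07 without the first shTop1 coculture and at 0.01 without the second, and Taldo1 was at 0.04 without the second shp53 coculture and at 0.20 without the first. G6pdx, which opens the pathway, was not analysed here.

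**Figure D3:**
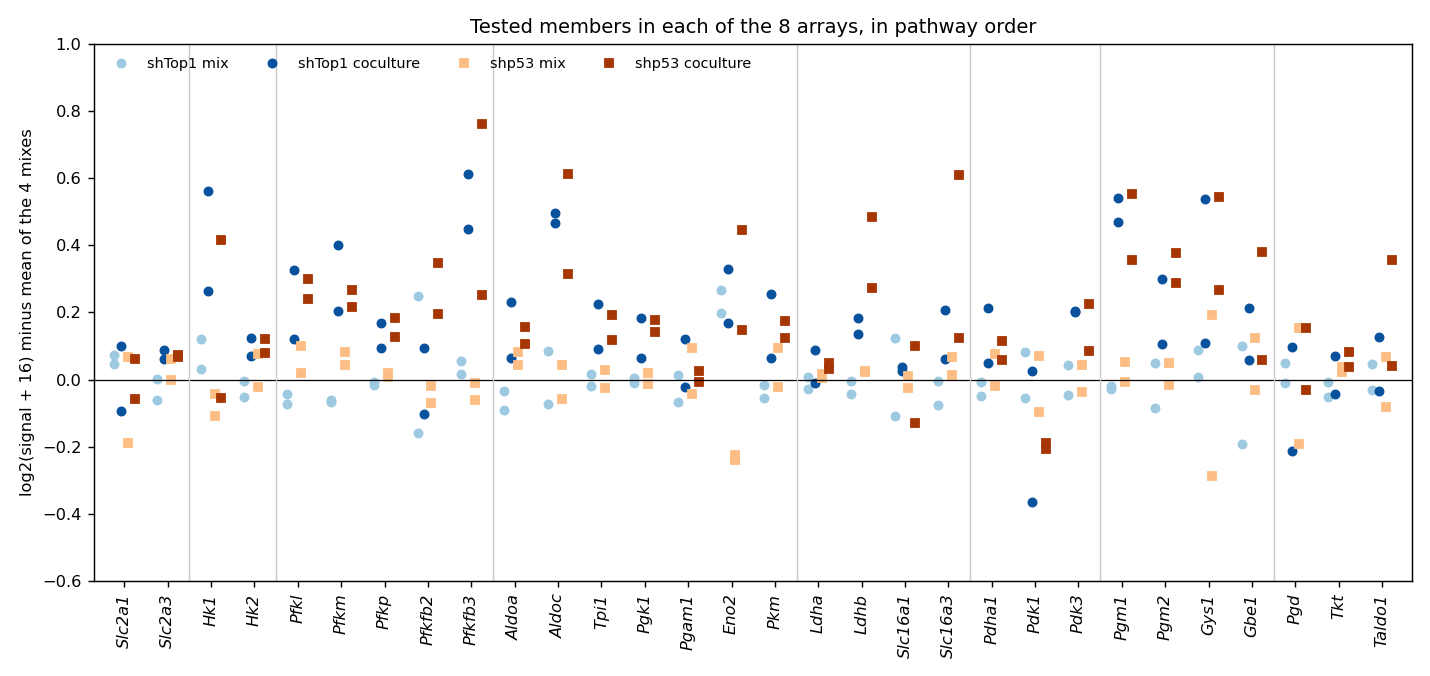
Every tested member (horizontal axis, in pathway order, grey lines between roles) in each of the 8 arrays, as log2(signal + 16) minus that gene's mean over the 4 mixes (vertical axis). Pale points are mixes and dark points cocultures, circles shTop1 and squares shp53. The 4 dark points lie above the 4 pale ones for 11 members, among them Pfkl, Pfkm, Pfkp, Tpi1, Pgk1, Pgm1 and Pgm2.

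Across arrays, all 4 cocultures lay above all 4 mixes for 11 of 30 members, Pfkl, Pfkm, Pfkp, Pfkfb3, Aldoc, Tpi1, Pgk1, Ldhb, Pdk3, Pgm1 and Pgm2, against 5.75% of all genes. They lay below for 0 members, against 3.35% of all genes. On the signals as deposited, before quantile normalization, the count was also 11, of which 10 were shared. There Pgk1 overlapped, with its lowest coculture at 26620 and its highest mix at 28204, and Slc16a3 did not overlap. The share of all genes on the deposited signals is not given here. The highest of the 8 values was in a coculture for 27 of 30 members, against 58.5% of all genes, and the lowest was in a mix for 27, against 50.6%. The second shTop1 coculture and the first shp53 coculture were each the highest array for 10 members, and the second shTop1 mix was the lowest for 15. Taking for each array the median over members of the log2 value minus the gene's mean in the mixes, values were -0.03 to 0.02 in the mixes and 0.10 to 0.17 in the cocultures, while the same median over all genes lay between -0.00 and 0.05.

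The knockdowns were also compared with mixes separately. In shTop1 the members' median was 0.16 with 26 of 30 above 0, and 5 had an unadjusted p under 0.05 and were higher (Pfkl, Pfkm, Pfkfb3, Aldoc and Pgm1), against 5.12% of all genes. In that comparison 0 members were lower, against 3.08%, and 0% of genes passed the adjusted threshold. In shp53 the median was 0.15 with 27 above 0, and 6 were higher (Pfkfb3, Aldoc, Eno2, Ldhb, Pgm1 and Pgm2), against 3.86%. There 0 members were lower, against 2.99%, and again 0% passed. These counts rest on few arrays, and they fell in most runs that left out 1 array of the groups compared. Such a run leaves 1 array in a group, and the share of all genes at that p moved too. Without the first shTop1 mix, the members' share in shTop1 was near that of all genes. The members' median was 0.10 in shTop1 without the second shTop1 coculture, and 0.14 in shp53 without the first shp53 coculture.

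Both arrays of the coculture lay above both mixes for 19 members in shTop1, against 24.5% of all genes, and for 20 in shp53, against 20.9%. Both lay below for 0 members in shTop1, against 16.9%, and for 1, Pdk1, in shp53, against 17.1%. The knockdowns used separate mixes and cocultures, although the labels do not say whether the mock cells were shared. For 24 of 30 members (80.0%) both differences were above 0, against 35.9% of all genes and 41.9% of the genes in the top 20% by mean signal, where 20 of the members lie. The pattern of Aldoc, with 0.47 in each, and of Pfkp, with 0.14 in each, was nearly equal, whereas Eno2 and Pfkfb2 lay far off the line of equal change. For the difference of the coculture effects 0% of genes passed the adjusted threshold, and the members' median was 0.01.

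**Figure D4:**
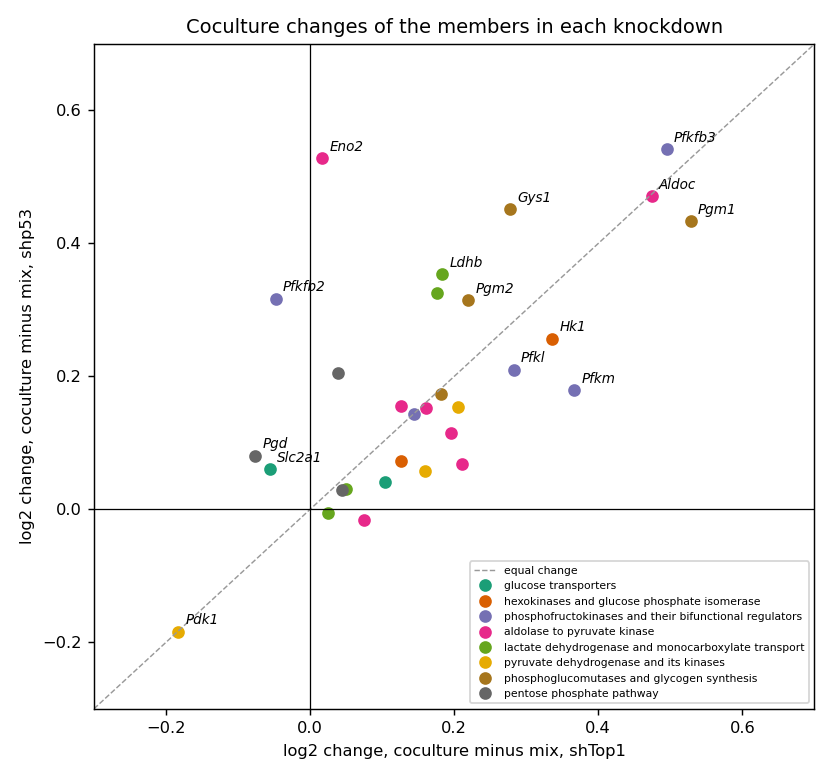
Log2 change, coculture minus mix, of each tested member in shTop1 (horizontal axis) and in shp53 (vertical axis), coloured by role, with the dashed line marking equal change. Of the 30 members 24 lie in the upper right and 1, Pdk1, in the lower left, and Eno2 and Pfkfb2 lie above the line near 0 in shTop1.

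Averaged over mix and coculture, shTop1 and shp53 samples differed little in these genes. The median of shTop1 minus shp53 was -0.02 over the members, and 0 of 30 had an unadjusted p under 0.05 in either direction, against 2.4% of all genes higher and 2.29% lower, and 0% after adjustment. The smallest p-values were those of Eno2 (0.21, SE 0.0937), Ldhb (-0.13, SE 0.0763) and Hk1 (0.19, SE 0.131), each with a limma adjusted p of 0.999 or above.

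The choice of probe set changed what some members show. Of the members, 18 had more than 1 probe set above the filter, and for 9 of these all their probe sets lay above 0: Aldoa, Gys1, Hk1, Ldhb, Pdha1, Pgk1, Slc2a1, Slc2a3 and Tpi1. Among all 66 probe sets above the filter, 20 had all cocultures above all mixes, against 4.6% of every probe set tested, and 2 had all below (1 of Pfkl, 1 of Tkt), against 3.46%. All 20 probe sets with a mean signal of at least 10000 were above 0, with a median of 0.13, against 55.1% of all probe sets that bright. Probe sets of the same gene were counted separately, and Aldoa, Pgk1, Tpi1, Slc2a1 and Slc2a3 each gave several of these bright ones. Of the 8 with a mean signal under 100, only 1, of Gys1, was above 0, against 50.2% of all such probe sets. The dim probe sets of Aldoc, Pgm1, Pfkfb2 and Tkt are in that group, and what their signal measures was not tested.

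**Figure D5:**
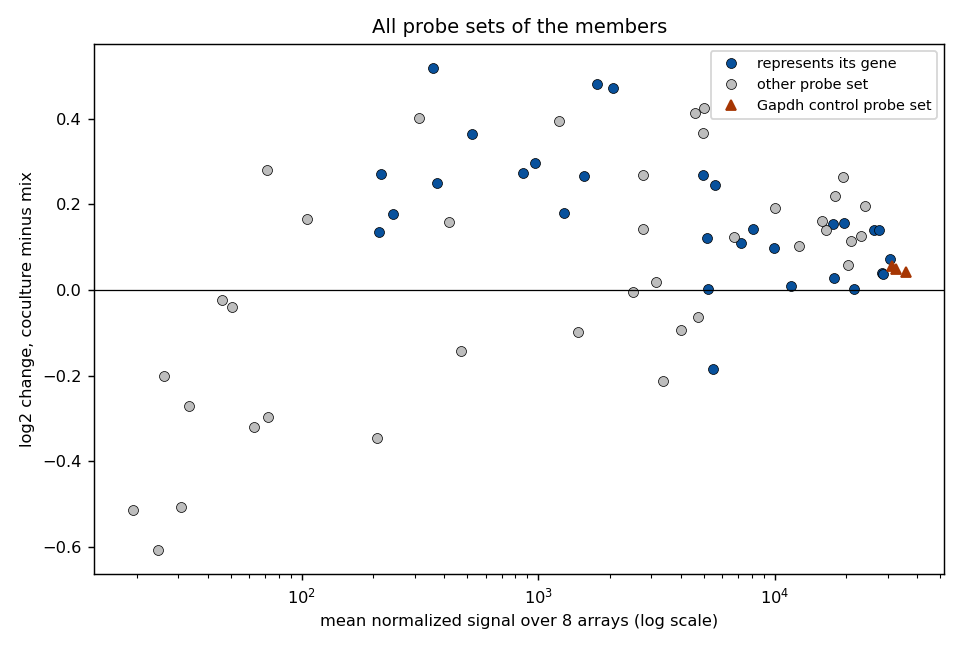
Each point is 1 probe set of a member, with its mean normalized signal over the 8 arrays (horizontal axis, log scale) and its log2 change, coculture minus mix averaged over both knockdowns (vertical axis). Blue points represent their gene in the test, grey points are the gene's other probe sets, and triangles are the Gapdh control probe sets at 0.04 to 0.06. The points at 10000 or more all lie above 0, and most points under 100 lie below it.

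With limma's trended and robust variances, an alternative model of the spread, 0.217% of all genes (31) passed the adjusted threshold in the mean comparison, and 2 of these were members, Pgm1 (adjusted p = 0.0321) and Aldoc (adjusted p = 0.043). The main model called 0 genes, so both calls depend on how the variance was modelled.

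Other genes around the pathway were read from lists that do not include the members. Over all genes 55.3% were above 0, and 7.09% were higher at an unadjusted p under 0.05 and 4.63% lower. All cocultures lay above all mixes for 5.75% and below for 3.35%. These are the shares to read these lists' counts against. All cocultures lay above all mixes for 2 of 20 other glycolysis and glucose transport genes and 4 of 13 other pyruvate genes. The same held for 4 of 14 other glycogen genes and 0 of 12 other pentose phosphate genes. They lay below for 0 genes of these lists. Of 20 other genes of glycolysis and glucose transport 17 were above 0, with a median of 0.18, and 2 had an unadjusted p under 0.05, both higher, a share near that of all genes. They were G6pc3, a glucose 6-phosphatase (0.54, SE 0.155), and Pck2, the mitochondrial PEP carboxykinase (0.17, SE 0.0639). Of 13 other pyruvate genes 8 were above 0 and 5 had a p under 0.05, all higher, among them Pdk4, a further pyruvate dehydrogenase kinase (0.38, SE 0.0948), and the malic enzyme Me1 (0.35, SE 0.105). Pdk4 differed by 0.69 in shTop1 and 0.07 in shp53, a difference of 0.61 (SE 0.19, limma adjusted p = 1), while Me1 differed by 0.36 and 0.33.

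Of 14 glycogen genes outside the member list 12 were above 0 and 3 had an unadjusted p under 0.05, all higher, where 55.3% and 7.09% of all genes were. None of the 14 passed adjustment. The liver type glycogen phosphorylase Pygl, which breaks glycogen down, ranged from 124 to 178 in the mixes and from 223 to 244 in the cocultures, a difference of 0.61 (SE 0.0761). Gyg, the primer protein of glycogen, ranged from 565 to 602 in the mixes and from 756 to 814 in the cocultures, a difference of 0.40 (SE 0.0653). Of 12 other pentose phosphate genes 6 were above 0 and 1 had an unadjusted p under 0.05, shares near those of all genes. It was Rpia, the ribose phosphate isomerase (0.28, SE 0.106), and the next by p was the ribokinase Rbks (0.40, SE 0.204).

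Among 18 regulators of glucose use 2 were higher and 2 lower at an unadjusted p under 0.05, where 7.09% and 4.63% of all genes were. All cocultures lay above all mixes for 5 of the 18 and below for 2, where 5.75% and 3.35% of all genes did. Txnip and Arrdc4, arrestin family genes known to respond to glucose and to restrain its uptake, differed by 0.55 (SE 0.142) and 0.30 (SE 0.101). Txnip ranged from 3645 to 4940 in the mixes and from 5349 to 7349 in the cocultures. Myc and Mycn, which are known activators of glycolytic genes, differed by -0.82 (SE 0.309) and -0.30 (SE 0.118). The Mycn cocultures, from 5656 to 7476, all lay below the mixes, from 7747 to 8142, while those of Myc overlapped. None of these genes passed the adjusted threshold (limma, smallest adjusted p = 0.279, for Pygl).

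On the first principal component all cocultures (-2.94 to 26.1) lay above all mixes (-21.1 to -5.14), and on the second the first shTop1 coculture stood apart (32.6). The mean deposited signal was 812 to 896 per array, and cocultures exceeded mixes by 19.3 (exact permutation p = 0.4, two-sided; the smallest that 4 against 4 arrays allow is 0.0286). The Actb 3'/5' log2 ratio, a sign of RNA integrity, differed by 0.009 (exact permutation p = 0.857). Top1 itself read 5110 to 5316 in the shTop1 arrays and 5456 to 5886 in the shp53 arrays, without overlap (log2 -0.11, limma adjusted p = 0.999), and the p53 gene was not analysed here. Stem cell markers such as Pou5f1, Nanog and Zfp42 were all above the filter, and their summed signal was 120282 to 122778 in the mixes and 115947 to 124066 in the cocultures. Over all genes 55.3% were above 0, 5.75% had all cocultures above all mixes and 3.35% had all below. Of the 10 stem cell markers 6 were above 0 (Nanog 0.20). The 4 below were Zfp42 (-0.28), Sox2 (-0.29), Klf4 (-0.15, all cocultures below all mixes) and Fbxo15 (-0.13), and none of the 10 passed adjustment. Markers of primitive endoderm, a cell type that stem cell cultures can form, summed to 52879 to 55693 in the mixes and 56397 to 62987 in the cocultures, with 10 of 10 above 0. Fibroblast markers, 8 of 15 above the filter, summed to 1974 to 2066 and 2104 to 2538, and Col3a1, S100a4, Lum, Dcn, Postn and Twist2 were below the filter. Pdgfra is in both lists. The summed signals of the primitive endoderm and fibroblast lists were thus higher in all cocultures together with the members. Those of the neural and mesoderm lists overlapped. Neural markers summed to 1039 to 1166 in the mixes and 977 to 1104 in the cocultures. Mesoderm markers summed to 377 to 440 in the mixes and 372 to 509 in the cocultures. Gene by gene, all cocultures lay above all mixes for 0 of the 10 primitive endoderm markers, near the 5.75% of all genes. The same held for 3 of the 8 fibroblast markers (Col5a1, Cxcl12 and Thy1), and Col6a3 was below 0. Of the 5 neural markers tested 2 were above 0, and the lowest difference was -0.99. All cocultures lay below all mixes for 1 of these 5, where 3.35% of all genes did. Of 5 mesoderm markers tested 3 were above 0, and cocultures and mixes overlapped for each. The part of these cell types in the members' differences was not tested.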

How the data were processed

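RNA of 8 samples was hybridised to Affymetrix arrays. The values deposited by the authors are linear intensities, 1 for each probe set on an array. The software behind them is not named in the labels. As read from the values, the deposited intensities share a mean of about 500.003 on every array once the highest and lowest 2% are left out. Of 45101 probe sets, 34958 had 1 symbol in the platform annotation, 932 several and 9211 none listed. The number of arrays limits the precision.

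After quantile normalization the values were transformed to log2(value + 16), which understates differences of dim probe sets. Each gene was represented by its non-control probe set with the highest mean, kept at or above the 30th percentile (signal 22.1). A single limma model (version 3.58.1, R 4.3.3) held the 4 group means of all 8 arrays (4 residual degrees of freedom, two-sided p, Benjamini-Hochberg over 14266 genes, threshold 0.05). The contrasts were coculture minus mix in both knockdowns together and in each, their difference, and shTop1 minus shp53. The steps were tested on simulated data.

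All 34 members are named. Values of every array are given for the 8 members with the smallest p in the mean comparison and the 3 smallest in each other contrast, and for Pdk1, chosen after its values were seen. From each other pathway list the 2 genes with the smallest p are named, and Myc, Mycn and the cell type markers named were chosen after their values were seen. The members and lists were chosen with earlier results of these data known. Replicate numbers did not pair the samples: correlations of same-numbered deviations were -0.00666 to 0.0506. Exact permutation tests used scipy 1.17.1. Alternatives were other scalings, pseudocounts of 1 and 64, no filter and one at the 50th percentile, other probe set rules, other variance models, only the groups compared, a replicate number as a block, and leaving out each array. With an array left out, normalization and the choice of each gene's probe set were repeated. A covariate for each array's mean signal was added after the data were seen.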

Additional observations from a re-analysis of the deposited data

Results flagged for a closer look

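Outside the tested genes only the 3 control probe sets of Gapdh were screened, and 1 of them was flagged. The control probe set for the middle part of the Gapdh transcript lay higher in all 4 cocultures than in all 4 mixes, by 0.0486 on the log2 scale. The 3' and 5' control probe sets overlapped and differed by 0.06 and 0.04. Of every probe set tested 4.6% had all cocultures above all mixes, and the median difference of all genes was 0.02. Each group held 2 arrays, too few to look for a single outlying sample within a group.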

How the results depend on the processing

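In the mean comparison the members' median log2 difference was above 0 under all 20 other settings, 8 of which left out 1 array (0.1245 to 0.1744). It was 0.2527 with median centring, which moved the median of all genes to 0.07, and 0.1956 with the deposited scaling alone. In shTop1 it was 0.2739 and 0.2147 under these settings, 0.1022 with a gene's probe sets averaged, 0.2024 with the covariate for mean signal and 0.1032 to 0.1814 when arrays were left out. In shp53 it was 0.2017 with median centring, 0.1102 with probe sets averaged and 0.1386 to 0.1888 when arrays were left out. The median of the difference between the effects was 0.08023, 0.07586 and 0.04694 with median centring, the deposited scaling and the covariate, and -0.02675 to 0.05186 when arrays were left out. That of shTop1 minus shp53 was 0.05713 with median centring, where the median of all genes was 0.05153. Trended and robust variances called 31 genes in the mean comparison, 3 in shTop1 and 1 in shp53, where the main model called 0. With the replicate number as a block, 0 genes were called, the members' median stayed 0.1494 and 9 members had an unadjusted p under 0.05, so the block changed no call. The count of 9 ranged from 5 to 15 over the settings that kept all arrays. It was 5 with a gene's probe sets averaged, where 853 of 13630 genes were higher at that p. It was 15 with trended and robust variances, where 1206 of 14266 genes were, against 1012 of 14266 in the main model. Averaging a gene's probe sets brings in dim probe sets for some genes. With that setting the mean comparison turned to -0.1544 for Pfkfb2, -0.04433 for Pfkfb3 and -0.01719 for Aldoc (-0.02885 in shTop1, -0.005531 in shp53). It turned to -0.006425 for Slc16a1, -0.06926 for Pgd and -0.05242 for Tkt. That setting also took Pgm1 to 0.09, Pfkl to 0.06 and Pfkp to 0.05. The 4 probe sets of Pgd were not dim, with mean signals of 2525 to 5230, and 1 of them lay above 0. Median centring raised Slc2a3 to 0.24, Tkt to 0.19, Pgam1 to 0.15, Aldoa to 0.29 and Pgk1 to 0.30. With the covariate, Slc2a1 was at -0.04063 and Pgam1 at -0.001608. When arrays were left out, the sign also turned for Slc2a1 (-0.06225 to 0.06502), Pgd (-0.08506 to 0.08936), Slc16a1 (-0.04886 to 0.06868) and Pgam1 (-0.006957 to 0.06587), all members within 1 SE of 0. The cause of these moves was not tested. No measure of background was used, so how far dim probe sets lie above it was not tested.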
